A study of Mus musculus with 4 samples.

Results

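Chromosome 15 carried 6256 islands of trimethylated histone H3 lysine 36 (H3K36me3) in 2 ChIP-seq libraries of mouse myocytes, of 128124 islands in both deposited lists together. They were taken from the lists by chromosome name alone, 2852 from wild-type cells and 3404 from cells with an enhancer deletion. They were then divided by whether an island started before position 61500001 (build mm9), called the boundary below, or at or past it. The position came from an earlier search of these same lists for the point that best separated their cover. The numbers, lengths and overlaps on the 2 sides are therefore descriptions, and no test was made on them.

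Both genotypes were FVB mice. Myoblasts were taken from skeletal muscle at postnatal day 4, grown for 5 to 10 passages, and made to differentiate by removing growth factor for 24 hours. One library came from wild-type cells, and the other from cells, called the mutant below, that lack a muscle-specific enhancer of H19 and Igf2. With 1 library per genotype, genotype, culture and library cannot be told apart, and the labels do not say how many animals gave the cells. The identity of the cells was not checked against muscle marker genes, because islands were not matched to genes here.

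H3K36me3 is written by the methyltransferase SETD2, which travels with elongating RNA polymerase II, so the mark builds up over the bodies of transcribed genes and extends towards their 3' ends. A run of long, closely spaced islands usually traces an active gene, and long stretches without islands are usually silent or poor in genes. H19, a maternally expressed noncoding RNA, and Igf2, a paternally expressed growth factor, lie together on chromosome 7. Chromosome 15 is thus not the targeted chromosome. Among its genes are Myc, which encodes a growth-promoting transcription factor, the noncoding Pvt1, the growth hormone receptor gene Ghr, the Hoxc homeobox cluster and Col2a1, a cartilage collagen gene. The RefSeq table lists 1775 genes on it, 776 of them protein-coding, but its assembly is GRCm38 and not mm9, so no island is assigned to a gene below.

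The files hold islands and no read totals. Depth solved from the deposited scores was 2.82 reads for each 200 bp window of the wild-type library and 3.11 for the mutant library, a ratio of 1.102. The ratio is 1 value for the whole library, so the values below stand beside those of the 17 other autosomes (all but chromosomes 14 and 15, chromosome 14 being left out because it stood apart earlier).

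Before the boundary the mutant had less of the chromosome under islands, and past it more. On the first side, 1504 wild-type islands covered 7.25 Mb and 1459 mutant islands covered 5.35 Mb, a mutant to wild-type ratio of 0.738 in length and 0.970 in number. Past it, 1348 wild-type islands covered 7.95 Mb and 1945 mutant islands covered 10.7 Mb, with ratios of 1.35 in length and 1.44 in number. Islands thus took up 12.4% (wild type) and 9.15% (mutant) of the first side, counted from 3 Mb, and 18.9% and 25.5% of the second. Over whole chromosomes, the other 17 autosomes had length ratios from 0.875 (chromosome 4) to 1.03 (chromosome 1) and number ratios from 1.12 (chromosome 4) to 1.29 (chromosome 1). Each side of chromosome 15 lay outside both ranges, in opposite directions, while chromosome 15 as a whole had ratios of 1.06 and 1.19. The split was chosen from this cover and the 17 autosomes were not split, so nothing is read from the sides lying outside. The first side was not the extreme of the genome, since chromosome 14 had 0.672 and 0.863.

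**Figure D1:**
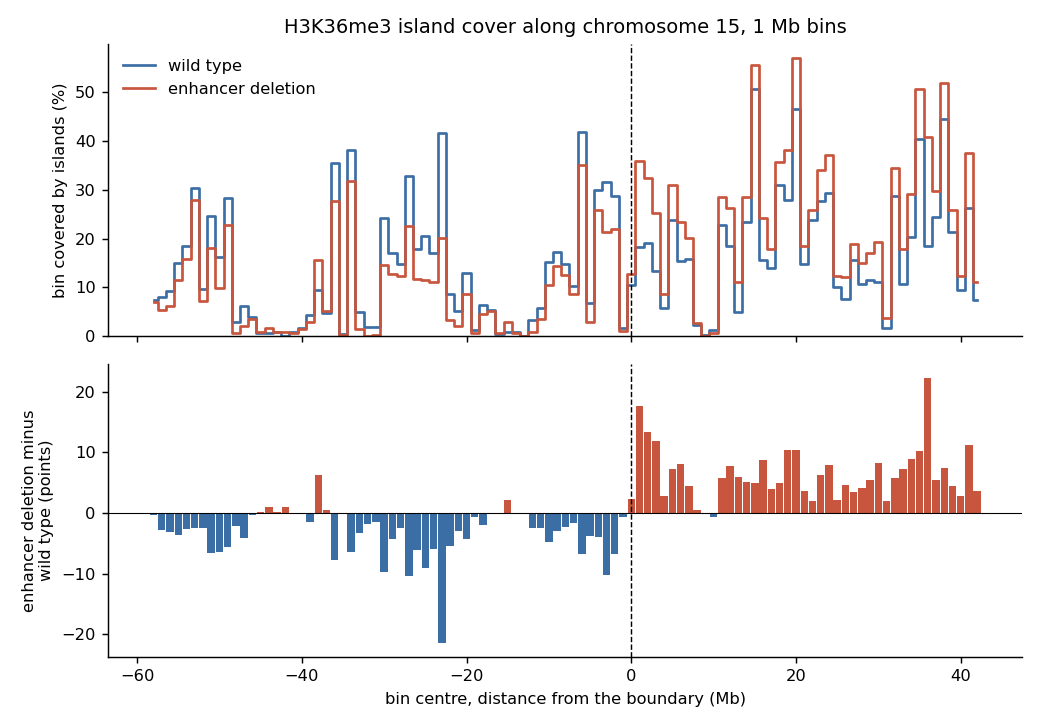
Cover of chromosome 15 by H3K36me3 islands in 1 Mb bins, against the distance of the bin centre from the boundary: percent covered in each genotype (upper panel) and mutant minus wild type in percentage points (lower panel). Most differences left of the dashed line are below 0 and most right of it above 0, with the extremes of -21.5 and 22.3 points in single bins.

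Mutant islands were shorter on both sides, so the extra cover past the boundary came with many more islands and with more very long ones. The median island before the boundary was 3600 bp long in wild-type cells (quartiles 2400 and 5400) and 2600 bp in mutant cells (1800 and 4200). Past it the medians were 4200 bp (2800 and 6800) and 3200 bp (2000 and 6000), against 3800 and 3000 bp over the 17 other autosomes. Islands under 2 kb made up 12.8% of wild-type and 31.3% of mutant islands before the boundary, and 8.01% and 20.6% past it. On the other 17 autosomes they made up 9.66% and 24.1%, so short islands were more common in the mutant there too. The lower score floor of the mutant list applies to all of these shares. At the long end the 2 sides went apart. Before the boundary 26 wild-type and 10 mutant islands reached 20 kb, but past it 37 and 85 did. On the other 17 autosomes 1016 of 52810 wild-type and 814 of 63939 mutant islands did. Lengths of at least 10 kb were reached by 125 wild-type (8.31%) and 80 mutant (5.48%) islands on the first side. On the second, 199 (14.8%) and 258 (13.3%) reached them. These held 3.14 Mb of the wild-type and 4.86 Mb of the mutant cover on that side. The shares on the other 17 autosomes were 10.7% and 7.69%.

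The difference was spread over most of each side, with exceptions before the boundary. In segments of 5 Mb counted from the boundary, all 9 segments past it had a mutant to wild-type cover ratio above 1, from 1.20 to 1.78. Of the 12 segments before it, 11 had ratios from 0.516 to 0.950. The exception, from 16.5 to 21.5 Mb with a ratio of 1.68, is almost empty of the mark and held 8 wild-type and 20 mutant islands. The segment after it, from 21.5 to 26.5 Mb, had the ratio of 0.950 but more mutant islands, 169 against 125, and 59 of the 169 (34.9%) had no counterpart. The lowest ratio lay between 36.5 and 41.5 Mb, where 197 wild-type islands covered 0.893 Mb and 142 mutant islands 0.461 Mb. The highest past the boundary lay in the segment that starts there, where 152 wild-type islands covered 0.673 Mb and 272 mutant islands 1.20 Mb. Beyond this segment the ratio was between 1.20 and 1.42 as far as the last island.

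The sides can also be described in bins of 500 kb. Among 105 such bins before the boundary that were covered to at least 1% in either library, cover was lower in the mutant in 89, higher in 14 and equal in 2. Past the boundary it was higher in 73 of 76 and lower in 3. Over all autosomes 42.4% of bins were higher in the mutant and 57.0% lower. A difference of at least 1.5-fold was reached by 47 of the 105 bins in the downward direction, where 17.0% of all autosomal bins did so, and by 26 of the 76 in the upward direction, against 10.7%. The position of the boundary was chosen from this contrast, so nothing is read from these shares.

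The islands next to the boundary are given as a description, since its position was chosen from them. The last 3 wild-type islands before it, at 61249401 to 61251200, 61308601 to 61310400 and 61423801 to 61426600, were 1.8 to 2.8 kb long and had no mutant counterpart. The last mutant island before it, at 61025601 to 61028200, ended 471.8 kb short of it. The first 3 wild-type islands past it, from 61716601 to 61788600, had no counterpart either. The first mutant island past it lay at 61809601 to 61810600. In the last 1 Mb before the boundary there were 11 wild-type and 3 mutant islands, which covered 37.2 and 5.6 kb. From the boundary to 61872800, just before the first mutant island of at least 10 kb, there were 7 and 8, covering 26.4 and 18.8 kb, so the mutant was still the less covered there. In the rest of the first 1 Mb past the boundary the order turned, with 41 wild-type islands over 216.6 kb and 69 mutant islands over 374 kb. None of those 41 lacked a counterpart, while 34 of the 69 did. These 3 windows were chosen after their values were seen.

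**Figure D2:**
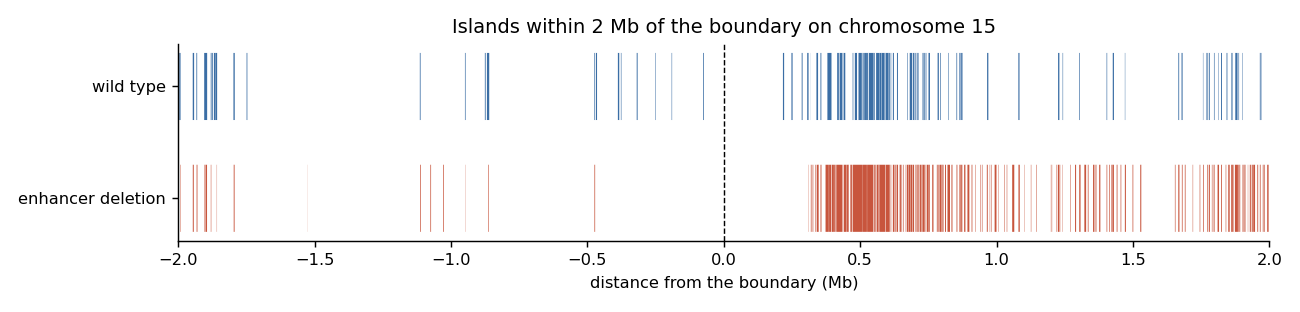
Islands of each genotype (bars, drawn to scale) within 2 Mb of the boundary on chromosome 15, against distance from it. Islands of both lists are sparse left of the dashed line, with 3 mutant and 11 wild-type ones in the last 1 Mb. To its right they stay few up to 61872800, with 8 and 7, and are dense from there to 62500000, with 69 and 41.

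Wild-type islands without a mutant counterpart, that is with no base inside a mutant island, were common on the first side and rare on the second. They numbered 464 of 1504 before the boundary, or 30.9% (exact binomial 95% interval 28.5% to 33.3%), and 69 of 1348 past it, or 5.12% (4.00% to 6.43%). The latter share was 8.95% with islands of at least 2 kb and 10.0% where 50% of an island had to be covered. Over all chromosomes the share was 18.0%, and it ran from 14.3% (chromosome 6) to 22.2% (chromosome 4) among the other 17 autosomes, with 41.6% on chromosome 14. In segments of 5 Mb it was 20% to 47.2% before the boundary and 1.06% to 14.3% past it. The ranges of the 2 sides did not overlap, but the boundary was chosen from the cover of these lists, so nothing is read from this. The binomial intervals cover counting error only, and neighbouring islands are not independent.

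Mutant islands without a wild-type counterpart followed the opposite order. There were 302 of 1459 before the boundary, or 20.7% (18.6% to 22.9%), and 785 of 1945 past it, or 40.4% (38.2% to 42.6%). Over all chromosomes the share was 25.7%, and the other 17 autosomes ran from 20.8% (chromosome 4) to 30.0% (chromosome 1). The first side thus lay at the low edge of that range and the second above it. That range is of unsplit chromosomes, so nothing is read from these positions. Segments overlapped here, with 10.2% to 70.0% before the boundary and 29.2% to 53.3% past it, the value of 70.0% again coming from the nearly empty segment from 16.5 to 21.5 Mb.

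Islands without a counterpart were mostly short and of low score, here and over all chromosomes. Of wild-type islands in the upper 50% of their list by score, 69 of 687 (10.0%) before the boundary and 4 of 745 (0.537%) past it had no counterpart, against 4.84% over all chromosomes. For mutant islands in the upper 50% of theirs, the counts were 25 of 611 (4.09%) and 184 of 1084 (17.0%), against 7.02%. In the lower 50% the wild-type shares were 48.3% and 10.8%, against 31.1% over all chromosomes. The mutant shares were 32.7% and 69.8%, against 44.4%. The 464 wild-type islands had a median length of 3000 bp, and 63 of them reached 5 kb. The 785 mutant islands had a median of 2200 bp, and 47 reached 5 kb, where 4 wild-type islands without a counterpart did so on that side and 5 mutant ones on the other. Over all chromosomes the median length was 3200 bp for unmatched and 4200 bp for matched wild-type islands, and 2000 and 3400 bp for mutant ones. There, 1348 of 10472 unmatched wild-type and 584 of 17934 unmatched mutant islands reached 5 kb. In the upper 50% by score were 1411 of those 10472, a share similar to the 69 of 464 before the boundary. For mutant islands they were 2449 of 17934, a lower share than the 184 of 785 past it.

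Most of the unmatched islands stood clear of the other library's islands rather than at their edges. The median distance from an unmatched wild-type island before the boundary to the nearest mutant island was 11.4 kb, and 13.8% lay within 2 kb of one. For unmatched mutant islands past the boundary the median was 6.8 kb and 19.7% lay within 2 kb. On the other 17 autosomes the medians were 8.6 kb for wild-type and 5.0 kb for mutant islands, with 18.7% and 28.2% within 2 kb.

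**Figure D3:**
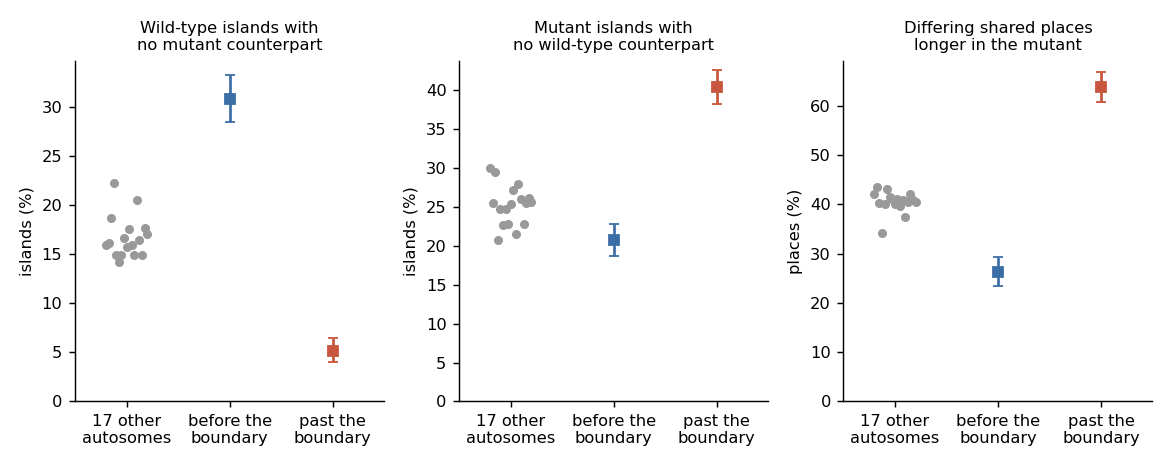
Percent of wild-type islands with no mutant counterpart, of mutant islands with no wild-type counterpart, and of differing shared places that are longer in the mutant. Grey points are the other 17 autosomes, squares are the 2 sides of chromosome 15 with exact binomial 95% intervals, which cover counting error only. The side past the boundary sits at 5.12%, 40.4% and 63.8%, outside the grey points in each panel. Nothing is read from this, since the boundary was chosen from cover and the grey points are unsplit chromosomes.

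Where both libraries had islands, the mutant's extent was more often the smaller before the boundary and the larger past it. Touching islands of the 2 lists were joined into shared places, 949 before the boundary and 996 past it. Before it, the mutant covered more bases in 228 places, fewer in 641 and as many in 80. Past it, the mutant covered more in 598, fewer in 339 and as many in 59. Among places that differed, the mutant was the longer in 26.2% (23.3% to 29.3%) on the first side and in 63.8% (60.7% to 66.9%) on the second. Over all chromosomes the share was 40.6%, and it ran from 34.2% (chromosome 4) to 43.5% (chromosome 2) on the other 17 autosomes. The median difference was -600 bp (quartiles -1800 and 0) before the boundary and 400 bp (-400 and 1800) past it. As a log2 ratio of covered length the medians were -0.20 and 0.11, beside -0.07 over all chromosomes.

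Larger differences in extent were less frequent but just as divided. A place was at least 1.5-fold shorter in the mutant in 288 of 949 cases (30.3%) before the boundary and 93 of 996 (9.34%) past it, with 19.6% over all chromosomes. It was at least 1.5-fold longer in 50 (5.27%) and 162 (16.3%), with 9.18% over all chromosomes. Places differed by how much wild-type length they held. Where it was 10 kb or more, the mutant was the longer in 23 of 133 differing places before the boundary and in 172 of 224 past it. Where it was 5 to under 10 kb, the counts were 39 of 238 and 141 of 246, and where it was under 5 kb, 166 of 498 and 285 of 467. As shares these are 17.3%, 16.4% and 33.3% before the boundary and 76.8%, 57.3% and 61.03% past it, with no steady trend by length past it. On the other 17 autosomes the shares were 36.5%, 33.3% and 46.1%.

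In places with exactly 1 island of each list, the ends of the 2 islands could be compared. Both mutant ends lay further in than the wild-type ends in 210 of 749 such places (28.0%) before the boundary, and in 73 of 716 (10.2%) past it, against 20.7% over all chromosomes. Both lay further out in 40 (5.34%) and in 189 (26.4%), against 11.4%. Both ends were at the same position in 45 and 20 places. The median shift, where a positive value is outward in the mutant, was -200 bp at either end before the boundary, and 0 bp at the lower and 200 bp at the higher coordinate past it. The means were larger, -444 and -440 bp before the boundary and 275 and 315 bp past it, beside -152 and -175 bp on the other 17 autosomes, where both medians were 0.

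Long wild-type islands before the boundary often touched several mutant islands, and long mutant islands past it often touched several wild-type ones. Of 125 wild-type islands of 10 kb or more before the boundary, 82 (65.6%) touched at least 2 mutant islands. Past it, 56 of 199 (28.1%) did so, and over all chromosomes 55.0%. Conversely, 140 of 258 mutant islands of 10 kb or more past the boundary (54.3%) touched at least 2 wild-type islands, and 32 of 80 (40.0%) before it, against 42.3% over all chromosomes. Shared places held fewer mutant than wild-type islands in 157 of 996 cases (15.8%) past the boundary and in 42 of 949 (4.43%) before it, where the share over all chromosomes was 7.04%. They held more in 95 (9.54%) and 131 (13.8%), against 14.5%.

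Both kinds of difference added to the totals. Before the boundary, unmatched wild-type islands held 1.52 Mb and unmatched mutant islands 0.587 Mb, while shared places were shortened by 1.20 Mb and lengthened by 0.242 Mb in sum, so that 50.7% of the net -1.90 Mb came from shared places. Past the boundary, unmatched wild-type islands held 0.215 Mb and unmatched mutant islands 2.05 Mb, and shared places were shortened by 0.418 Mb and lengthened by 1.34 Mb, so that 33.5% of the net 2.76 Mb came from shared places. Most of the added cover was therefore in islands with no wild-type counterpart, which is not particular to this side. On the other 17 autosomes unmatched mutant islands held 36.4 Mb, and shared places were lengthened by 20.4 Mb. The net of shared places there was -14.4 Mb.

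**Figure D4:**
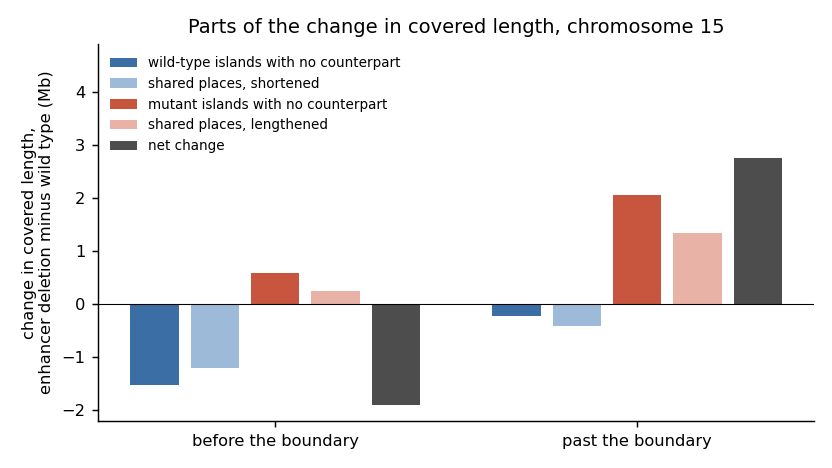
Change in covered length on each side of chromosome 15, mutant minus wild type in Mb, split into islands with no counterpart and shared places that are shorter or longer in the mutant. The net bars are -1.90 Mb before the boundary and 2.76 Mb past it.

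Score per window measures how strongly an island stands out from the background of its own library. It was set only against other islands of the same list, since the deposited score grows with depth. In the wild-type list the median was 3.73 before the boundary and 3.72 past it, and the other 17 autosomes had 3.62. In the mutant list it was 3.96 before the boundary and 4.30 past it, with 3.96 on the other 17 autosomes. The sides were further apart among islands with a counterpart, which leave out the many weak unmatched ones. Wild-type medians there were 4.14 and 3.77, which is 1.08 and 0.984 times the median of the other autosomes. Mutant medians were 4.06 and 5.17, or 0.972 and 1.24 times. Single autosomes ran from 0.954 (chromosome 1) to 1.13 (chromosome 6) times in the wild-type list and from 0.969 (chromosome 4) to 1.16 (chromosome 6) in the mutant list. The mutant value past the boundary lay above that range, but it depends on which islands are kept, since leaving out unmatched islands removes 40.4% of mutant islands there and 20.7% before the boundary. In the wild-type list it removes 30.9% before the boundary and 5.12% past it, and over all wild-type islands the 2 medians were nearly equal. The wider distance between the sides among islands with a counterpart is therefore not read as a difference in the mark. Over all mutant islands the value past the boundary was 1.09 times, inside the range of single autosomes from 0.975 (chromosome 11) to 1.12 (chromosome 6).

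Among islands of 10 kb or more the mutant median past the boundary was 7.14, 1.39 times that of the other autosomes. Chromosome 6 alone reached 1.43 times in that list, so this value lay inside the range of single autosomes. The corresponding wild-type value past the boundary was 5.14, or 1.104 times. Before the boundary the values were 5.27 (1.13 times) in the wild-type list and 5.01 (0.978 times) in the mutant list. In the mutant list 18.5% of islands past the boundary belonged to the top 10% of the list by score and 6.92% of those before it, where the wild-type shares were 13.6% and 7.98%.

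**Figure D5:**
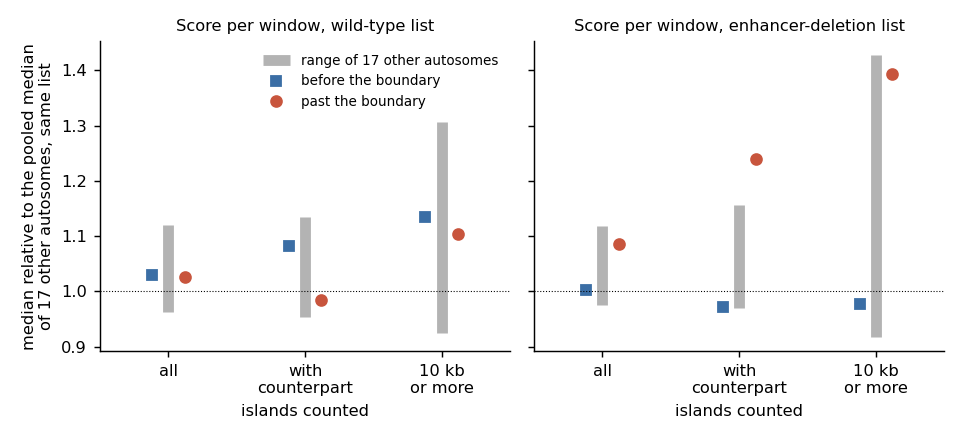
Median score per window on each side of chromosome 15, divided by the pooled median of the 17 other autosomes in the same list, for all islands, islands with a counterpart and islands of 10 kb or more. Grey bars span the medians of single autosomes. In the mutant list the value past the boundary for islands with a counterpart is 1.24, above the grey bar that ends at 1.16, and for all islands it is 1.09, inside its bar.

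The strongest islands before the boundary were present in both libraries. The highest-scoring wild-type island, which was also the longest there, ran from 27738401 to 27848600 (110.2 kb). In the mutant 7 islands lay along the same place with 99.2 kb in sum, the longest being the mutant's own highest-scoring island on this side, from 27738001 to 27784600 (46.6 kb). The second-ranked island in both lists started at 52897801, with lengths of 28.2 kb (wild type) and 26.8 kb (mutant). The third in the wild type ran from 57594201 to 57624600, with 91.4% of its length under mutant islands. The third in the mutant ran from 31156001 to 31183200, and wild-type islands covered 95.6% of it. Long islands nearly always touched one of the other list, so this is not particular to these. On the other 17 autosomes only 31 of 5626 wild-type and 27 of 4914 mutant islands of 10 kb or more touched none.

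The greatest shortfalls of single places in the mutant also lay on this side. From 36137601 to 36155800 a wild-type island of 18.2 kb faced a single mutant island of 1.8 kb. From 38537401 to 38554800 a wild-type island of 17.4 kb faced 3 mutant islands with 6.6 kb. The second of these lies in the 1 Mb bin where mutant cover fell furthest below wild-type cover in percentage points, from 38000001 to 39000000. There, 77 wild-type islands covered 41.6% of the bin and 54 mutant islands 20.1%, and 33 of the 77 had no counterpart, against 1 of the 54. Over all chromosomes 18.0% of wild-type and 25.7% of mutant islands had none. The bin was picked by its difference in cover, so nothing is read from its unmatched counts. The next bins in this direction started at 34000001 (32.8% wild type, 22.5% mutant), 58000001 (31.6% and 21.4%), 31000001 (24.3% and 14.5%) and 36000001 (20.6% and 11.5%). The longest unmatched wild-type islands were 11 kb each, at 58997001 to 59008000 and 59110401 to 59121400, followed by 9.8 kb at 55032801 to 55042600.

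Some places before the boundary went the other way. In the 1 Mb bin from 23000001 to 24000000 mutant islands covered 15.7% and wild-type islands 9.46%, a difference of 6.24 percentage points. From 7105601 to 7125400, 2 islands of each list covered 13.8 kb (wild type) and 19 kb (mutant). From 57955401 to 57965800 the lengths were 5.2 and 10.4 kb, and from 54910801 to 54918200 they were 2.8 and 7.4 kb. The longest unmatched mutant islands of this side were 6.2 kb (46537601 to 46543800) and 6.0 kb (25602201 to 25608200). The differences of these 3 shared places were smaller than the leading ones in favour of the wild type.

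Past the boundary the mutant's leading island was its longest on any chromosome, from 76902601 to 76986800 (84.2 kb), and wild-type islands covered 90.5% of it. Its next-longest islands on this side were at 88512201 to 88562000 (49.8 kb) and 95757401 to 95806600 (49.2 kb), of which wild-type islands covered 98.0% and 91.5%. The longest wild-type islands were at 83123801 to 83173800 (50 kb), 102356401 to 102398600 (42.2 kb) and 77588401 to 77628200 (39.8 kb), covered in the mutant to between 92.4% and 98.5%. These 6 islands thus lay largely under islands of the other library. Nearly all islands of 10 kb or more on the other autosomes touched one of the other list too, so nothing is read from this.

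The place where the mutant exceeded the wild type most lay in the bin where it did so most. From 97107801 to 97128400 a single wild-type island of 3.2 kb faced a mutant island of 20.6 kb. On either side of it were the longest unmatched mutant islands of the chromosome, at 97079401 to 97097400 (18.0 kb) and 97204001 to 97220800 (16.8 kb). In the 1 Mb bin from 97000001 to 98000000, 30 wild-type islands covered 18.5% and 70 mutant islands 40.8%, and 51 of the 70 had no counterpart. Over all chromosomes 25.7% of mutant islands had none. The bin was picked by its difference in cover, so nothing is read from this count.

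The next largest excesses were the 3 bins beside the boundary. From 62000001 to 63000000 wild-type islands covered 18.3% and mutant islands 35.9%, and 57 of 94 mutant islands had no counterpart. From 63000001 the values were 19.1% and 32.4%, with 34 of 73 unmatched, and from 64000001 they were 13.5% and 25.3%, with 24 of 48. These bins too were picked by their difference in cover, so nothing is read from the unmatched counts. The fifth bin started at 102000001, with 26.2% and 37.4%. Long mutant islands also bridged several wild-type ones. From 64103801 to 64141400, 4 wild-type islands with 22.6 kb faced 1 mutant island of 37.6 kb. Further on, from 73095601 to 73140800, 7 wild-type islands with 29.6 kb faced 1 of 45.0 kb.

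Places with less cover in the mutant were also found past the boundary, 339 of the 937 that differed. The largest shortfall was at 72637001 to 72646200, with 9.0 kb (wild type) and 3.0 kb (mutant). It was followed by 72851801 to 72867800 (15.2 and 10.0 kb) and 101870601 to 101879800 (9.0 and 3.8 kb). The longest unmatched wild-type islands of this side were 6.4 kb (71061601 to 71068000), 5.4 kb (77261601 to 77267000) and 5.2 kb (79799601 to 79804800). Each of these was shorter than the leading ones before the boundary.

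A few short islands had very high scores per window and were singled out after their values were seen. The island at 74915801 to 74917600 (1.8 kb) in the wild type scored 296 per window. The mutant island around it, at 74914801 to 74918200 (3.4 kb), scored 116. Each was the highest of its own list on the chromosome. Values of the 2 lists are not compared here, since depth and island length differ. An island of 0.4 kb at 61818601 to 61819000, only 318.6 kb past the boundary, scored 93.2 per window in the wild type, and its mutant counterpart of 0.6 kb scored 30.0. A mutant island of 0.4 kb at 37132801 to 37133200 scored 39.4 per window, ranking second in that list, and had no counterpart. The third-ranked wild-type island on the chromosome scored 21.5. Whether input DNA also has an excess of reads at these places was not analysed here, so these scores are not taken as levels of H3K36me3. The input libraries were likewise not analysed for the depth of the 2 sides of the chromosome. Whether the cells differ there in the amount of DNA rather than in the mark was therefore not tested. In a pool of cells, fewer cells with the mark and less mark per cell cannot be told apart.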

How the data were processed

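ChIP-seq islands of H3K36me3 from 1 wild-type and 1 mutant library were used. Reads were aligned with Bowtie 1.0.0 and islands called with SICER 1.1 on build mm9, as far as the tool names in the submitters' processing notes show. The authors deposited 1 list per library, with an island score for each island, a sum over 200 bp windows. Window and gap (600 bp) are read from the deposited file names and the spacing of the values. The sources used here do not state whether input was used or duplicates removed. Coordinates are printed counted from 1.

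Depth was solved from the scores of islands of 1 window (8 and 14 islands). Counterparts needed at least 1 bp of overlap. The work used Python 3.11.15 with scipy 1.17.1, pandas 2.3.3 and numpy 2.4.6, and matplotlib 3.10.9 for plots. With 1 library per genotype no test of genotype was made, and binomial 95% intervals (Clopper-Pearson) give counting error alone. In simulated lists, of 200 removed, 200 added and 200 extended islands, all were found, and simulated depths were solved.

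The members, the boundary (61.5 Mb) and the alternatives were chosen with earlier results of these data known. Regions were named by a rule: per side, the 3 highest-scoring, 3 longest and 3 longest unmatched islands of each list and the 3 shared places with the largest difference each way, and the 5 bins of 1 Mb with the largest difference each way. Alternatives were the upper 50% by score, islands of at least 2 kb, islands within 2 kb joined, equal covered length, other overlap rules, boundaries at 60.5 and 62.5 Mb and, added after seeing the data, the part past 65 Mb alone.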

Additional observations from a re-analysis of the deposited data

How the results depend on the processing

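No direction on either side turned under any setting, except the ratio of island numbers before the boundary, which went from 0.970 to 1.07 at equal covered length, a setting that removes 4427 wild-type and 0 mutant islands. That ratio was 0.889 in the upper 50% by score and 0.765 with islands of at least 2 kb, so no direction is read from it. Past the boundary, islands of at least 2 kb gave 1.25, and 1.34 resulted from joining. The cover ratio before the boundary was 0.680 with islands of at least 2 kb. Wild-type islands before the boundary had no counterpart in 33.9% (upper 50%), 40.9% (at least 2 kb), 34.01% (joined), 27.8% (equal length) and 42.6% of cases (50% of the island covered). Past it the shares were 8.95% (at least 2 kb), 6.59% (joined), 3.97% (equal length) and 10.0% (50% covered). For mutant islands before the boundary they were 15.9% (upper 50%), 16.4% (at least 2 kb), 23.0% (joined), 24.1% (equal length) and 23.8% (50% covered), and past it 35.7% (at least 2 kb), 43.4% (equal length) and 45.4% (50% covered). Shared places were longer in the mutant in 30.7% (upper 50%) and 32.7% (1 island of each list, 50% reciprocal overlap) before the boundary, and in 71.3% (upper 50%) past it. The cause of these shifts was not tested. Moving the boundary by 1 Mb either way kept every value within the counting interval of the deposited lists. So did counting from 65 Mb on (added after seeing the data). These settings keep most of the same islands, so such closeness was largely set in advance and nothing is read from it. For the cover ratios the interval was scaled from that of island numbers, so it does not measure error in covered length. No paired analysis was possible because each genotype has 1 library, which also leaves no replicate to omit. The share of weak islands that depth or the lower score floor of the mutant list adds was not tested.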
